A study of Mus musculus with 3 samples.

Results

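The actin, myosin, tropomyosin and troponin genes were followed across the germ layers of the mouse embryo at embryonic day 7.5 (E7.5), with the sarcomeric forms set against the smooth muscle and non-muscle forms. Members were taken by symbol alone: every gene beginning Myh, Tnnc, Tnni or Tnnt, or Myl, Tpm or Actn followed by a digit, with Acta1, Acta2, Actb, Actc1, Actg1 and Actg2. This gave 47 of the 18193 genes named on the array, carried by 82 of its 45037 probe sets. By type there were 26 sarcomeric genes, 4 of smooth muscle and 15 non-muscle or shared genes. The other 2, Tnni3k (a protein kinase) and Myhas (an antisense transcript), make no filament protein and came in through their symbols.

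Endoderm, mesoderm and epiblast were dissected from the embryonic region of untreated ICR mouse embryos at E7.5 after enzyme digestion, and 1 Affymetrix Mouse Genome 430 2.0 array was run per layer. The epiblast sample held both neuroectoderm and primitive streak, and the sources used here do not say how many embryos were pooled per array. With 1 array per layer no difference between layers could be tested, so differences are given as sizes, without p-values, and none has a replicate check. In such bulk samples, fewer cells of a type and less RNA per cell cannot be told apart.

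Muscle contracts as myosin heads pull on actin filaments within the sarcomere, where tropomyosin and the troponin complex set the calcium switch and alpha-actinin anchors actin at the Z-disc. Sarcomeric forms of these proteins are made in heart and skeletal muscle, whereas non-muscle forms drive cell shape change, adhesion and division in nearly all cells. At this stage the first heart progenitors lie in the mesoderm and no beating heart tube has formed.

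Differences are log2 ratios of intensities between layers. The floor was set at the median intensity of the whole table, 80.6 (log2 6.33), and a value under it is only a bound, so that a fold against it is written "at least". To count as differing, a gene needed a change of 2-fold or more (1 on the log2 scale) and a highest value over the floor. Values below the floor entered that change as they were read. The error beside a difference is the pooled SD between probe sets of the same gene. This SD stands in for the error of the array reading, though probe sets may also read different transcript ends or isoforms. It is not the spread between embryos. On the log2 scale and over 5536 genes, it was 0.40 between endoderm and epiblast, 0.27 between mesoderm and epiblast, and 0.39 between endoderm and mesoderm. Intensities of different genes are not compared with each other.

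The promoters of 5 sarcomeric genes are shown here. Myl7, Myl1, Tnni1 and Myl2 were the members highest in mesoderm by 2-fold over both other layers, and Actc1 is the cardiac actin gene, which did not differ 2-fold between any layers. Each line gives the 250 bases before the RefSeq start site of GRCm38.p6, 5′ to 3′ on the gene's strand, at chr11:5898783-5899032 (minus strand) for Myl7, chr2:114052876-114053125 (minus) for Actc1, chr1:66945057-66945306 (minus) for Myl1, chr1:135799171-135799420 (plus) for Tnni1 and chr5:122092474-122092723 (plus) for Myl2. For Tnni1 and Myl2, which have 2 start sites in that table, the more upstream is used. Capitals mark matches, on either strand, to the CArG box (the site of serum response factor), the MEF2 site, TATAAA (the TATA box), GATAA (the core of a GATA site) and TNAAGTG (an NK2 site).
Myl7: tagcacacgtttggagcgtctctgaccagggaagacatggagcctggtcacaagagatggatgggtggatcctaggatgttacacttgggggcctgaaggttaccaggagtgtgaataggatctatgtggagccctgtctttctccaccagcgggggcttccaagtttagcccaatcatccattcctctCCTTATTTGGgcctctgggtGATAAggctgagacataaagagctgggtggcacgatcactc
Actc1: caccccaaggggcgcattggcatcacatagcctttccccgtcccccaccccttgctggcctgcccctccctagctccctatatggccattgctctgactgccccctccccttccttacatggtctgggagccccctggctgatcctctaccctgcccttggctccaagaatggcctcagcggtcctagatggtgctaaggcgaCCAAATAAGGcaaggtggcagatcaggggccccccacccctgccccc
Myl1: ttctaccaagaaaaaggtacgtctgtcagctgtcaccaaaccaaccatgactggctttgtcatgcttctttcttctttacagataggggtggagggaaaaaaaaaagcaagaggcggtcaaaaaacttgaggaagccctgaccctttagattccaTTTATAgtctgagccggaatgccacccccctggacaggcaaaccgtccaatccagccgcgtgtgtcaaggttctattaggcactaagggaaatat
Tnni1: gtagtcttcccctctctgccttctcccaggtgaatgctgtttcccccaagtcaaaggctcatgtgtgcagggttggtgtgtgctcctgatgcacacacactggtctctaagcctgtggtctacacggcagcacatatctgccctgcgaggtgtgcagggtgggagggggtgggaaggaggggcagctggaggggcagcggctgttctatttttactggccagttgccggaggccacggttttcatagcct
Myl2: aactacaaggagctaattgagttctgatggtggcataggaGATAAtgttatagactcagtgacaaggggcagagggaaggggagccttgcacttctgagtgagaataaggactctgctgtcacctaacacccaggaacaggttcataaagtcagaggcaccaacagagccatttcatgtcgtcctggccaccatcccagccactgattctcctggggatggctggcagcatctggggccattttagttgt

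The CArG box, known from muscle promoters, was in 8 of 49 promoter windows of the members (16.3%), each window running from 250 bases before to 50 bases after a start, against 535 of all 32851 windows (1.63%). The 8 were those of Acta1, Actc1, Myh4, Myl3 and Myl7 among sarcomeric genes, Myl9 of smooth muscle, and Actg1 and Myl6 among non-muscle genes. In Myl7 it read CCTTATTTGG and began at position -61 from the start, with GATAA from -41. In Actc1 it read CCAAATAAGG and began at -47. Of the 4 mesoderm genes, Myl7 alone held a CArG box, Myl2 held GATAA at -210 from its upstream start, Myl1 held TATAAA on the reverse strand, and Tnni1 held none of these apart from CANNTG. Matches to the TATA box letters, counted anywhere in the window and on either strand, were in 11 of 29 sarcomeric windows (37.9%). They were in 1 of 16 non-muscle windows (6.25%), against 13.6% of all windows. Myh1, Myh3, Myh4 and Tnnt1 held a forward match beginning at -32, -29, -31 and -30. In Acta1 it began at -7, and in Actc1, Myh2 and Myh6 after the start, at 34, 11 and 2. Myl1, Myh8 and Myl2 held only reverse matches, as did the non-muscle gene Myh9, at -123. GATAA was in 26.5% of member windows and 25.4% of all, CANNTG (the E-box) in 85.7% and 72.3%, and TNAAGTG in 6.12% and 11.5%. No member window held the MEF2 site in the form searched, which 0.557% of all windows did. Sites with other letters or outside these windows would have been missed. It thus does not follow that these genes lack MEF2 sites. These letter matches are descriptions and not measured binding sites, both strands were searched, and none of the matches in member windows overlapped.

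**Figure D1:**
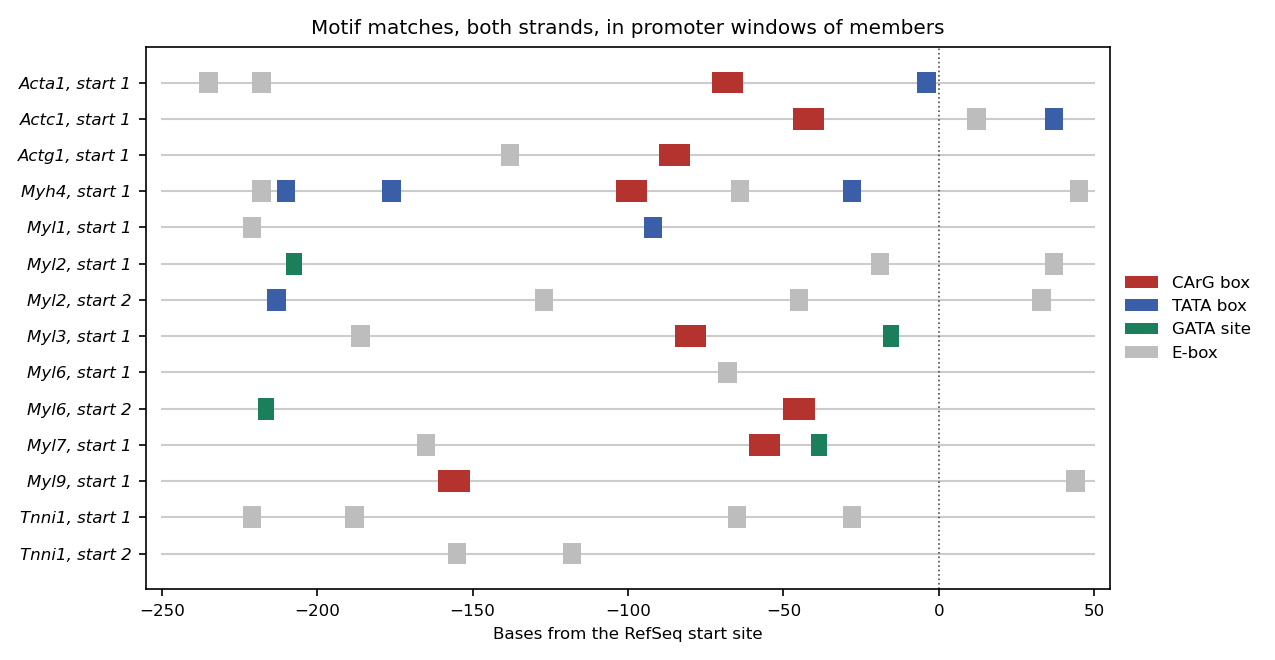
Matches to the CArG box, TATA box, GATA site and E-box, placed by distance in bases from the RefSeq start (0, dotted line), 1 row per start site. Only the 8 members with a CArG box and Myl1, Myl2 and Tnni1 are drawn, not all members. CArG boxes are seen in 8 rows, among them Myl7 at -61 and Actc1 at -47.

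The layers carried their own markers. Each of 4 endoderm markers, 4 mesoderm markers and 4 epiblast markers was highest in its own layer, with summed intensities of 24594, 332 and 364 for the endoderm list in endoderm, mesoderm and epiblast, 943, 6984 and 1140 for the mesoderm list, and 858, 856 and 6523 for the epiblast list. Of other cell types, the 3 blood markers measured were below the floor on all arrays, at 35.6 to 50.5. Of 4 endothelial markers only Sox18 was above the floor, and the list summed to 222, 315 and 274. The 5 decidual markers summed to 239, 258 and 242, and the 3 trophoblast markers to 231, 248 and 277. The part of other cells in the differences below was not tested.

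Of the 47 members, 34 were above the floor on at least 1 array: 16 of 26 sarcomeric genes, 3 of 4 smooth muscle genes and all 15 non-muscle or shared genes. The 13 below it were Actn2, Myh1, Myh2, Myh3, Myh8, Myl10, Tnnc2, Tnni3, Tnnt2 and Tnnt3 of the sarcomere, Actg2 of smooth muscle, and Tnni3k and Myhas, with intensities of 6.27 to 76.2 over their 18 probe sets. Tnnt2, the cardiac troponin T, was among them with all of its 3 probe sets, so no fold is given.

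Against epiblast, 5 members were higher in mesoderm and 1 was lower, and all 6 were sarcomeric. Of all genes 2.42% were higher and 2.28% were lower in that comparison. Against epiblast, 3 members were higher in endoderm and 1 was lower (8.78% and 2.82% of all genes). Some of these calls rest on an epiblast value below the floor. With such values raised to the floor, 2 members were higher in endoderm, without Myl6b, and 4 in mesoderm, without Tnnc1. That split of 3 to 1 became 9 to 0 with the arrays centred on housekeeping genes and 2 to 2 after quantile normalization. Endoderm had 1 member higher and 4 lower than mesoderm (8.01% and 2.71% of all genes), and those 5 were sarcomeric too. The split there became 6 to 4 with that centring. In total 9 members differed in some pair of layers, of which 6 were sarcomeric and 3 non-muscle or shared, and no smooth muscle gene did so. This was 19.1% of the 47 members, beside 15.1% of all genes. Dominance, 2-fold above both other layers, was seen for 4 members in mesoderm and 0 in endoderm or epiblast, where 1.05% of all genes were dominant in mesoderm, 6.24% in endoderm and 0.83% in epiblast.

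The median over the 16 sarcomeric genes above the floor was 0.18 (mesoderm minus epiblast), -0.18 (endoderm minus mesoderm) and 0.10 (endoderm minus epiblast), beside -0.02, 0.07 and 0.05 over all genes. Over all 26 sarcomeric genes the mesoderm against epiblast median was -0.14. The sarcomeric median for endoderm minus mesoderm turned to 0.08 when the arrays were centred on housekeeping genes. The 2-fold differences thus lay with 6 of the 16 genes, while the medians of the class stayed small. The highest of the 3 arrays was mesoderm for 8 of the 16 sarcomeric genes, endoderm for 5 and epiblast for 3, though centring on housekeeping genes made it endoderm for 9 and mesoderm for 6. Among the 15 non-muscle genes the highest array was endoderm for 10, mesoderm for 2 and epiblast for 3. Endoderm led for 9 to 12 of them under the other scalings. The median of these non-muscle genes for endoderm minus epiblast was 0.31. How often each array was highest over all genes was not computed. Of all genes called for endoderm against epiblast, 75.7% were higher in endoderm.

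**Figure D2:**
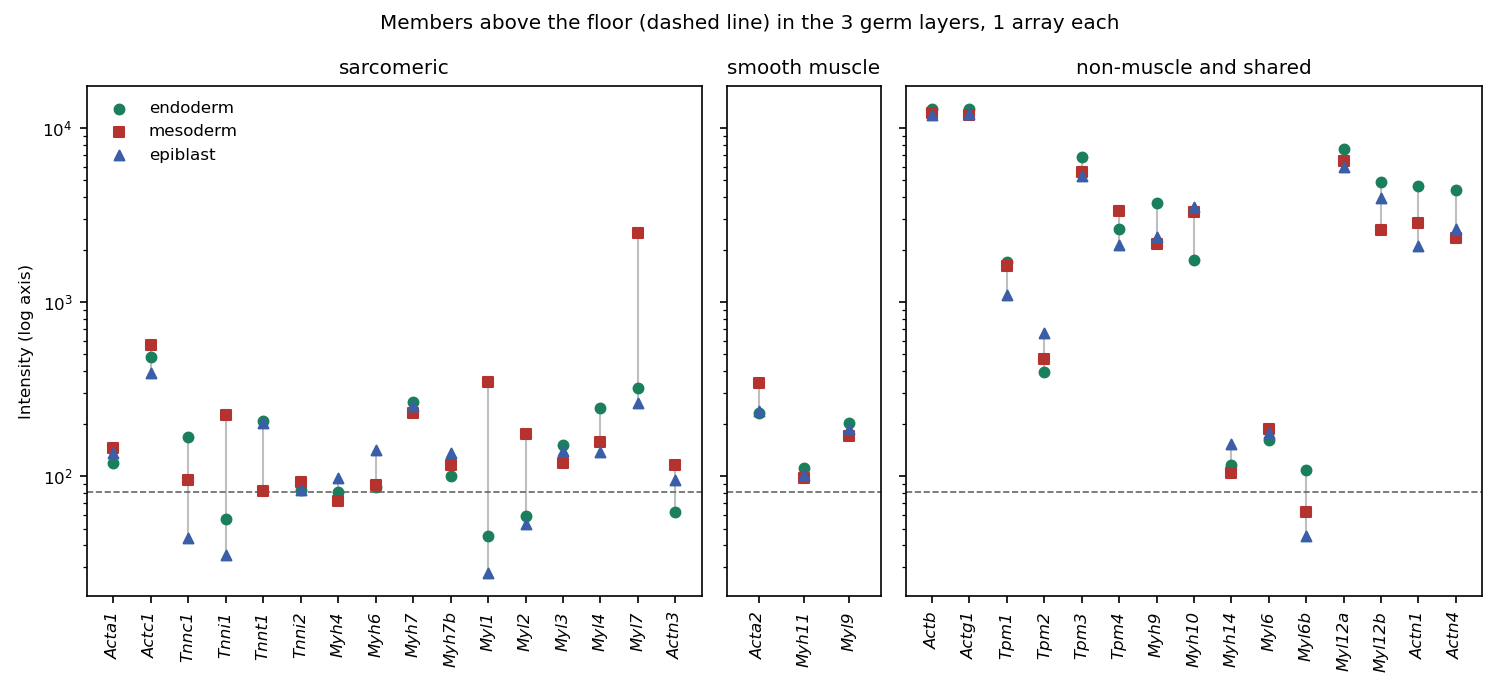
Intensity (log axis) of each member above the floor on the endoderm, mesoderm and epiblast arrays, 1 point per array, in separate panels for sarcomeric, smooth muscle and non-muscle or shared genes (dashed line, the floor of 80.6). Myl7, Myl1, Tnni1 and Myl2 stand apart in mesoderm, while the points of Actb and Actg1 lie on each other.

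The mesoderm genes were led by myosin light chains, the small subunits that stiffen and regulate the myosin neck. Myl7, the atrial regulatory light chain and an early gene of the forming heart, read 323 in endoderm, 2502 in mesoderm and 262 in epiblast. Mesoderm was thus high and the other layers were low and close to each other. The mesoderm value was 9.54-fold above epiblast (log2 3.25) and 7.75-fold above endoderm, while endoderm and epiblast differed by 1.23-fold, less than the probe set SD.

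Myl1, the essential light chain of fast skeletal muscle, read 45.0, 350 and 27.7 in endoderm, mesoderm and epiblast. Only mesoderm was above the floor, so it was at least 4.34-fold higher there than in either of the others. Myl2, the ventricular regulatory light chain, read 59.3, 174 and 53.4 and was at least 2.16-fold higher in mesoderm. These genes and Tnni1 below were each read by 1 probe set, so no other reading of the same gene was at hand. The remaining light chains of the sarcomere did not follow them. Myl3, an essential light chain of ventricle and slow muscle, read 152, 119 and 139 on a probe set that may cross-hybridise, within 1.27-fold. Its other probe set above the floor read 164, 110 and 117, or 1.49-fold higher in endoderm than in mesoderm. Myl4, the atrial and embryonic essential light chain, read 248, 158 and 138, which was 1.80-fold above epiblast in endoderm, but its other probe set read 131, 129 and 135.

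The troponin genes that differed did not share a pattern over the layers. For the cardiac complex this cannot be read, as Tnnt2 and Tnni3 were below the floor. Tnni1, the inhibitory subunit of slow skeletal muscle that is also made in embryonic heart, read 56.7, 225 and 35.4 in endoderm, mesoderm and epiblast, and was at least 2.79-fold higher in mesoderm than in either other layer. Tnnc1, the calcium-binding subunit of heart and slow muscle, was instead highest in endoderm, at 167, 94.8 and 44.4. This was at least 2.07-fold above epiblast in endoderm and at least 1.18-fold in mesoderm. The mesoderm call rests on an epiblast value below the floor and is lost when such values are raised to the floor.

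Tnnt1, the tropomyosin-binding subunit of slow muscle, was low in mesoderm instead, at 206, 82.3 and 202. It was 2.45-fold lower in mesoderm than in epiblast and 2.51-fold lower than in endoderm, with the mesoderm value barely above the floor. Tnni2, the fast inhibitory subunit, read 83.2, 92.3 and 83.0 and was near the floor throughout. Of the 3 troponin genes that differed, Tnni1 was thus high in mesoderm, Tnnc1 in endoderm, and Tnnt1 in endoderm and epiblast alike.

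Actins and heavy chains of the sarcomere differed little. Actc1, the cardiac actin, read 486, 568 and 389.7 in endoderm, mesoderm and epiblast, and mesoderm was 1.46-fold above epiblast (log2 0.54, probe set SD 0.27). Its difference between endoderm and mesoderm was 1.17-fold and turned its sign under another scaling. Acta1, the skeletal actin, read 119, 145 and 136 and stayed within 1.22-fold. Both actins thus read above the floor on each array, and mesoderm was not set apart by 2-fold. Whether such readings mean that the gene was expressed was not tested.

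Myh6, the alpha cardiac heavy chain, was highest in epiblast, at 86.6, 89.3 and 141. This was 1.63-fold above endoderm and 1.58-fold above mesoderm. A second probe set of Myh6 was far below the floor, at 8.89, 3.37 and 3.13, and did not repeat that order. Myh7, the beta cardiac heavy chain, read 267, 229 and 255. Myh7b read 100.33, 117 and 136, and Myh4, a fast skeletal heavy chain, 81.2, 72.3 and 97.0. Actn3, the alpha-actinin of fast fibres, read 62.3, 116 and 94.9, and was at least 1.44-fold higher in mesoderm than in endoderm. No heavy chain of the sarcomere reached 2-fold in any pair, and over the 10 uncalled sarcomeric genes the highest array was 1.11 to 1.80 times the lowest, with values below the floor set to it.

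Smooth muscle forms showed no 2-fold difference. Acta2, the smooth muscle actin, read 231, 345 and 236 in endoderm, mesoderm and epiblast, so mesoderm was 1.46-fold above epiblast and 1.50-fold above endoderm. That probe set holds probes shared between genes, while 2 further ones for Acta2 did not reach the floor. Myh11, the smooth muscle heavy chain, read 111, 96.9 and 101, and Myl9, its regulatory light chain, 202, 171 and 187. Both stayed within 1.18-fold.

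**Figure D3:**
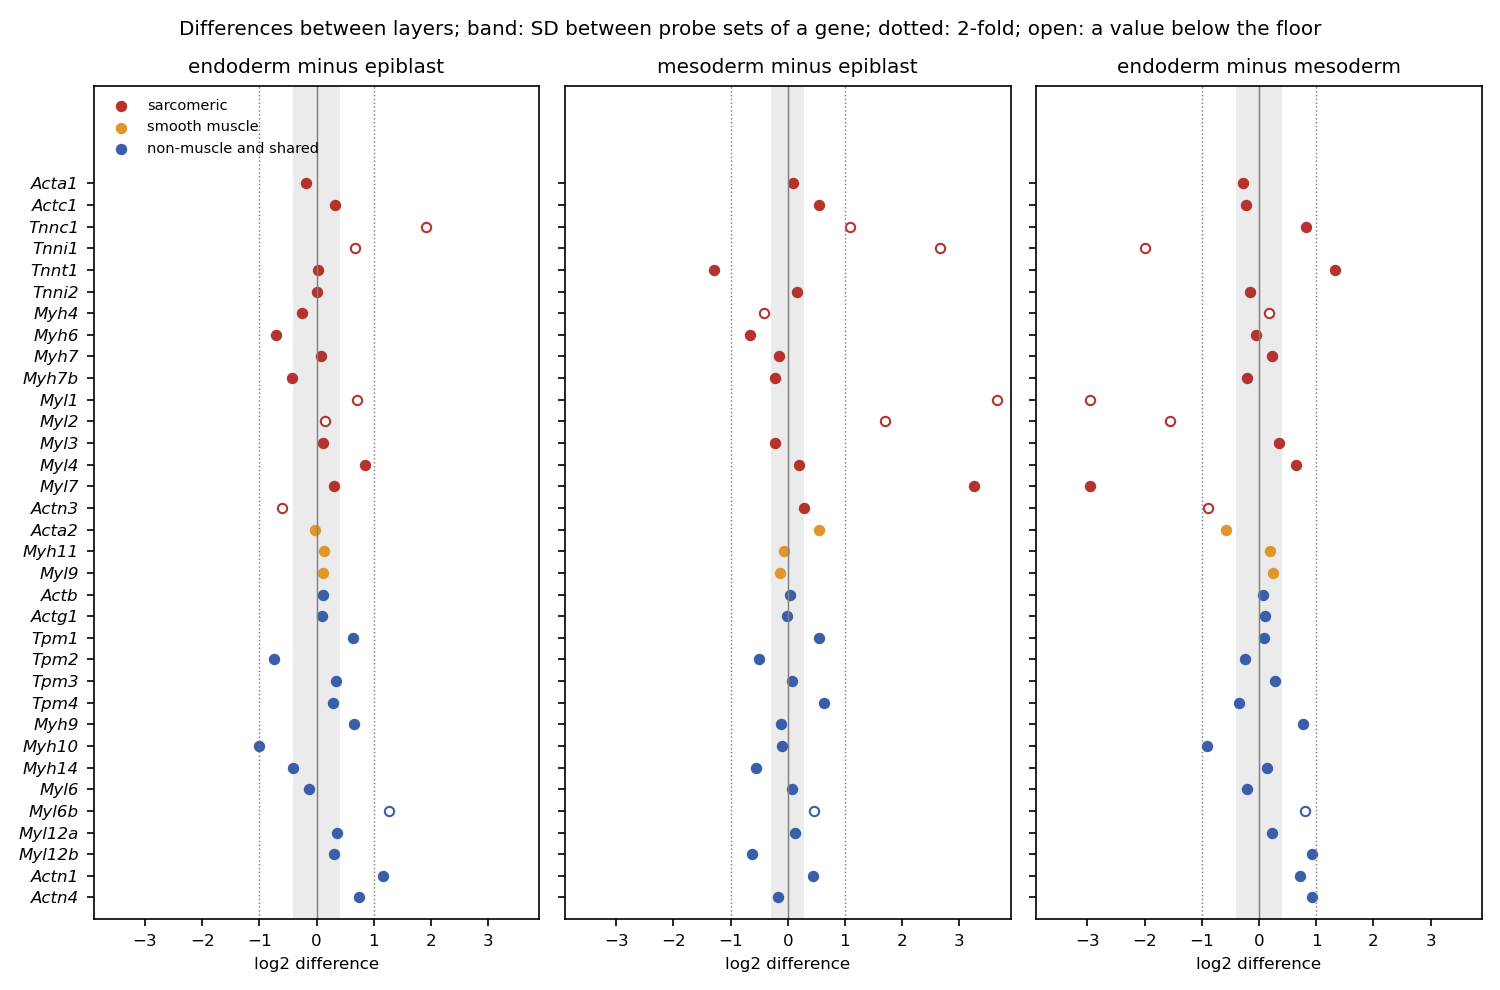
Log2 difference of each member above the floor for endoderm minus epiblast, mesoderm minus epiblast and endoderm minus mesoderm, 1 point per gene coloured by class, with a band for the pooled SD between probe sets and dotted lines at 2-fold. Open points have a value below the floor in 1 or both layers, so that their place is not a measured size. Of the filled points Myl7 (3.25) lies farthest out for mesoderm minus epiblast, and no non-muscle gene passes 2-fold in that panel.

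Non-muscle myosin heavy chains moved apart from each other. Myh9, heavy chain of non-muscle myosin IIA, read 3695, 2156 and 2351 in endoderm, mesoderm and epiblast. Myh10, that of IIB, went the other way, at 1754, 3277 and 3525. Endoderm was thus the high layer for Myh9 and the low one for Myh10, while mesoderm and epiblast were close for both, with differences of 1.09-fold and 1.08-fold whose sign turned under another scaling.

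For Myh9 endoderm was 1.57-fold above epiblast, and its 5 probe sets gave 0.49 to 0.75 on the log2 scale. For Myh10 it was 2.01-fold below epiblast and 1.87-fold below mesoderm, and a second probe set of the gene was below the floor. In endoderm the Myh9 to Myh10 ratio exceeded that of epiblast by 3.16-fold (log2 1.66, SD 0.57) and that of mesoderm by 3.20-fold (1.68, SD 0.55), but differed by a log2 of -0.02 between mesoderm and epiblast. That ratio does not depend on how the arrays were scaled to each other by a constant. Myh14, heavy chain of IIC, read 116, 104.5 and 153.

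The light chains of non-muscle myosin differed among themselves. Myl12a, a regulatory chain, read 7606, 6488 and 5949 in endoderm, mesoderm and epiblast. Its close copy Myl12b read 4927, 2597 and 3987, so mesoderm was 1.54-fold below epiblast and 1.90-fold below endoderm. Mesoderm was thus low for Myl12b and intermediate for Myl12a, a relative difference of 1.67-fold against epiblast. Myl6, the essential chain, read 162, 188 and 177 on its probe set with a single symbol. Myl6 thus rests on 1 probe set, as those listing a member with other symbols were left out. Myl6b, a related essential chain, read 109, 62.1 and 45.3 and was above the floor in endoderm alone, at least 1.35-fold over the other layers. Its 2-fold call over epiblast rests on an epiblast value below the floor and is lost when such values are raised to the floor.

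The non-muscle alpha-actinins Actn1 and Actn4 crosslink actin and tie it to adhesions, and the probe set that stands for each was highest in endoderm. Actn1 read 4674, 2847 and 2093 in endoderm, mesoderm and epiblast, and endoderm was 2.23-fold above epiblast. A second probe set of Actn1 read 416, 249 and 223 in the same order, but another, with probes shared between genes, read 353, 482 and 473 and was lowest in endoderm. Actn4 read 4401, 2328 and 2620, and endoderm was 1.68-fold above epiblast and 1.89-fold above mesoderm.

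Tropomyosins, which lie along the actin filament and set which proteins may bind it, divided by gene. Tpm1 and Tpm2 make muscle and non-muscle isoforms, which these values do not separate. Tpm1 read 1706, 1610 and 1103, so both endoderm (1.55-fold) and mesoderm (1.46-fold) were above epiblast. Another of its probe sets, at 343, 421 and 201, gave 2.09-fold for mesoderm over epiblast. Tpm2 went the other way, at 396, 469 and 664, with epiblast 1.67-fold above endoderm and 1.42-fold above mesoderm. All 4 Tpm2 probe sets gave the same order.

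The Tpm1 to Tpm2 ratio exceeded that of epiblast by 2.59-fold in endoderm and 2.07-fold in mesoderm, though neither gene alone differed 2-fold. The signs of the small Tpm1 and Tpm2 differences between endoderm and mesoderm turned under another scaling. Tpm3 read 6772, 5607 and 5331. Tpm4 was highest in mesoderm, at 2613, 3329 and 2134, or 1.56-fold above epiblast.

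Actb and Actg1, the cytoplasmic actins that all cells use, had the smallest range of the 34 members above the floor. Actb read 12826, 12264 and 11897 in endoderm, mesoderm and epiblast, and Actg1 read 12787, 11892 and 11971. Both stayed within 1.08-fold, and their ratio differed between layers by a log2 of no more than 0.05. Actg1 was read only by a probe set with probes shared between genes, so the readings of Actb and Actg1 may not be independent. The intensities of both genes lay near the highest values on the arrays (15196 to 15688), and whether these probes were near saturation was not tested.

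**Figure D4:**
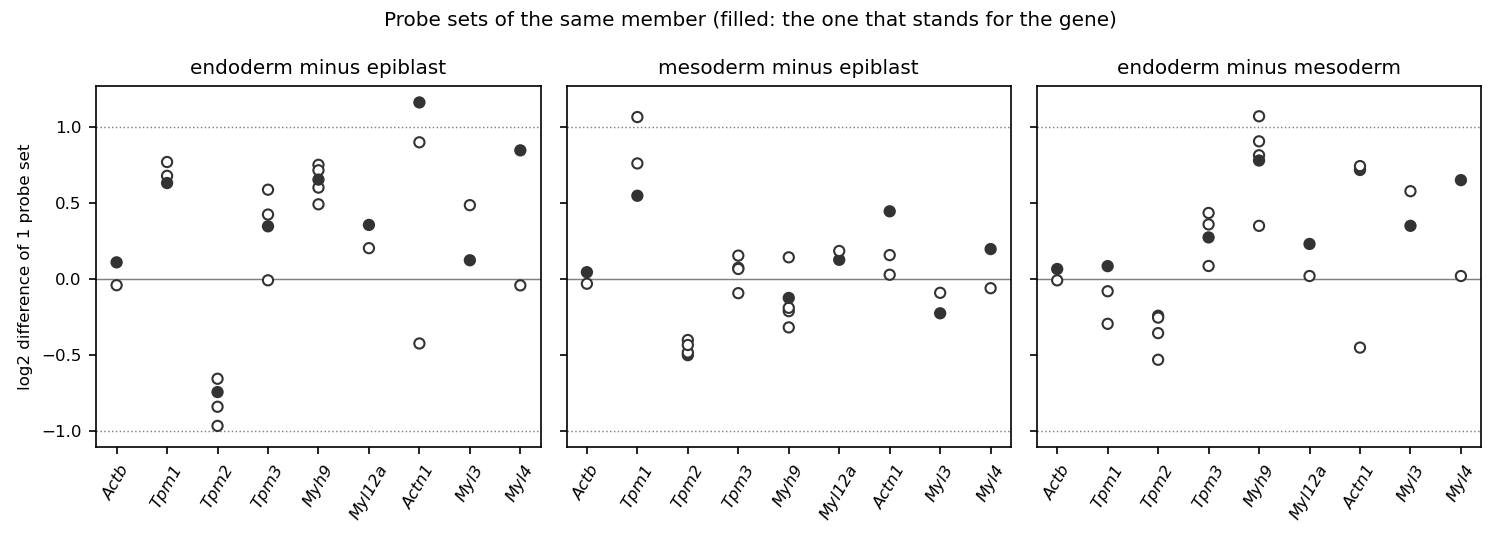
Log2 difference of each probe set of the members with several probe sets above the floor, for the 3 pairs of layers, with the probe set that stands for the gene filled. The 4 probe sets of Tpm2 and the 5 of Myh9 lie together for endoderm minus epiblast, while those of Actn1 lie on both sides of 0.

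Probe sets of 1 member did not always go together. Of 9 members with several probe sets above the floor, 3 (Myl12a, Myl3 and Tpm2) had the same sign in all pairs. For the other 6, at least 1 pair of layers had probe sets of both signs.

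Genes that work with these proteins were followed by lists. Of 24 cardiac and muscle regulators, which are transcription factors and cofactors, 19 were above the floor. In mesoderm 9 of them were higher than in epiblast and 0 lower, where 3.44% of all genes above the floor were higher. The median of the regulators above the floor for mesoderm minus epiblast was 0.86, beside -0.02 over all genes. Hand2, a heart factor, read 22.9, 577 and 23.4 in endoderm, mesoderm and epiblast, and was at least 7.15-fold higher in mesoderm. Tbx20, a T-box factor of the heart, read 124, 749 and 57.8, at least 9.29-fold over epiblast and 6.05-fold over endoderm. Mesoderm was thus the high layer for both, as for Myl7.

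Endoderm shared part of that list, with 5 genes higher there than in epiblast and 1 lower (12.5% and 4.01% of all genes above the floor). Gata6 read 644.5, 1079 and 63.9, and Gata4, a close relative, was highest in endoderm, at 562, 274 and 40.4. Mesp1, a factor of the earliest heart progenitors and also 1 of the mesoderm markers, went against the list for endoderm minus epiblast, at 172, 2057 and 579. Mef2d went against it for endoderm minus mesoderm, at 715, 341 and 231.

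Few calcium handling genes moved, with 1 of 10 higher in mesoderm than in either other layer (2.42% of all genes were higher than in epiblast). It was Cacna1c, the pore of a cardiac calcium channel, at 19.8, 197 and 30.3 (at least 2.44-fold over each). Atp2a2, the pump that refills the calcium store, read 4376, 3903 and 3419. Pln, which restrains that pump, read 64.9, 84.3 and 72.8, and Jph2, which holds calcium store and cell membrane together, read 101, 144 and 131. Apart from Cacna1c these stayed below 2-fold.

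The scaffold of the sarcomere was largely below the floor, with 9 of 29 measured genes above it. Pdlim5, a Z-disc protein also found outside muscle, was the 1 gene that differed, at 701, 603 and 294. It was 2.38-fold above epiblast in endoderm and 2.05-fold in mesoderm. Of all genes, 8.78% were higher than epiblast in endoderm and 2.42% in mesoderm. Pdlim3, a Z-disc relative, read 84.5, 117 and 106, Tcap, a cap of titin, 80.6, 88.5 and 103, and Myom2, of the M-band, 94.8, 75.9 and 90.1. All of these were close to the floor.

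Of 8 smooth muscle partners, 6 were above the floor and 2 exceeded epiblast in mesoderm, beside the same 3.44%. They were the actin-binding proteins Tagln, at 199, 413 and 140 (2.96-fold), and Cald1, at 1310, 2212 and 968 (2.28-fold). Smtn, another actin-binding protein, was instead 2.99-fold above epiblast in endoderm, at 387, 208 and 129. In that comparison 12.5% of all genes above the floor were higher. Pdlim7 read 322, 443 and 303. Mesoderm was thus the high layer for Tagln and Cald1, as it was, below 2-fold, for Acta2.

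Among 31 measured regulators of actin and non-muscle myosin, all above the floor, 5 had higher values in endoderm than epiblast and 0 lower. This was near the background, 12.5% higher among all genes above the floor. Gsn, which severs actin filaments, read 2772, 83.4 and 82.4, or 33.6-fold above epiblast. Tagln2, which bundles actin, read 2014, 566 and 595, and Cnn2, a calponin, 1685, 1505 and 526. Gsn and Tagln2 were thus high in endoderm alone, and Cnn2 in endoderm and mesoderm. Flnc, a filamin of muscle, went against the list, with mesoderm 2.38-fold above endoderm, at 111, 266 and 143.

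Of 10 apical and brush border genes, 5 exceeded epiblast in endoderm and 6 exceeded mesoderm there, and 3 were lower in mesoderm than in epiblast, with 9 of the 10 above the floor. Among all genes above the floor the shares were 12.5%, 11.4% and 3.25%. Vil1, which bundles actin in microvilli, read 2435, 49.9 and 69.4, at least 30.2-fold higher in endoderm. Myo6, a motor that walks to the minus end of actin, read 1739, 51.8 and 47.6, at least 21.6-fold. Pls1, another bundler of microvilli, read 346, 43.9 and 99.3. Ezr, which ties actin to the membrane, read 4256, 540.3 and 1723, and was 3.19-fold lower in mesoderm than in epiblast. Endoderm was thus the high layer for all 4.

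**Figure D5:**
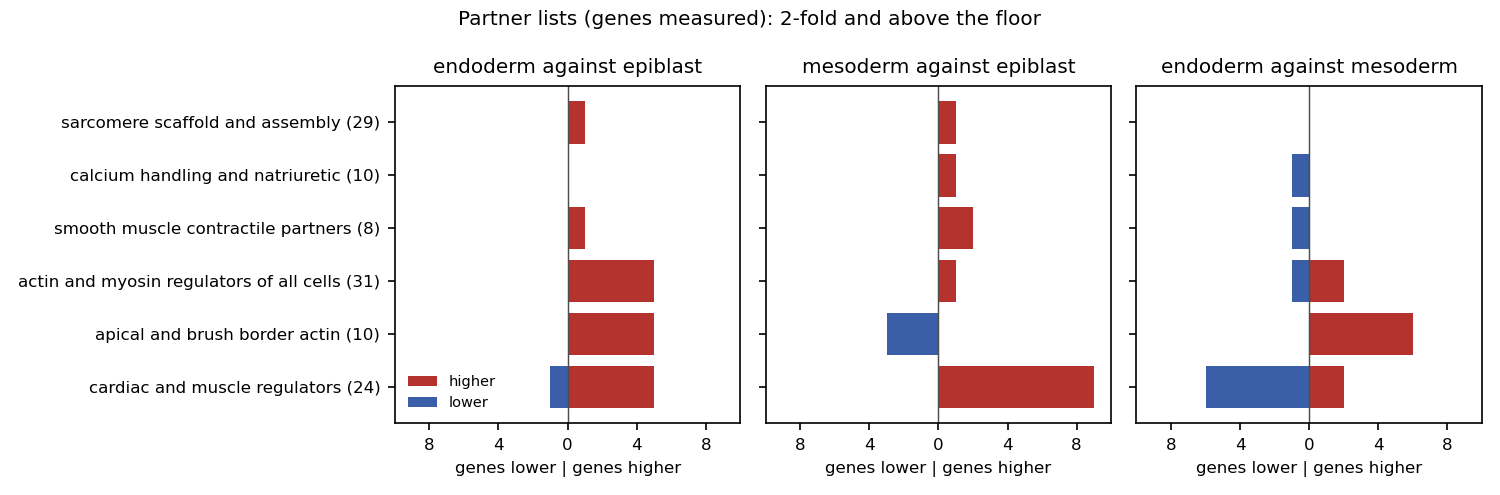
Number of genes of each partner list that were higher (right) or lower (left) by 2-fold and above the floor, for the 3 pairs of layers, with the number of genes measured beside each name. The cardiac and muscle regulators reach 9 higher for mesoderm against epiblast, and the apical genes 6 higher for endoderm against mesoderm.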

How the data were processed

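Per the labels and the methods, 100 ng of total RNA per layer was labelled and the arrays were normalized by Robust Multiarray Average (RMA), its version not given in the sources used here. What the authors deposited are linear intensities. How they were taken from the log2 scale that RMA usually gives, and why some values equal exactly 1 (22 to 34 per array), is not stated. Read depth does not apply to arrays, and 1 array per layer limits the precision.

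Of 45037 probe sets, 34945 had 1 symbol in the platform annotation and were used. The 4 probe sets with several symbols that include a member were left out. Where a gene had several, the one brightest on average (mean log2) stood for it. The floor was the median of all values. Matching symbols without a named probe set, Myh13, Myh15, Tpm3-rs2, Tpm3-rs3 and Tpm3-rs7, were not analysed here. Promoter windows came from RefSeq (GRCm38.p6) for 41 of the 47 members.

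The text names all members, and of each partner list up to 4 genes above the floor with the widest range over the layers and those differing against the list's median. The members and lists were chosen with earlier results of these data known. No column was left unused (0 columns). Python 3.11.15, numpy 2.4.6, pandas 2.3.3 and matplotlib 3.10.9 were used, with R 4.3.3 and limma 3.58.1 for cyclic loess. Alternatives, 10 planned and 1 added, covered the floor, dim values, offset, limit, probe set rule, normalization and centring.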

Additional observations from a re-analysis of the deposited data

How the results depend on the processing

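Of 165 values for the class counts and medians recomputed under 11 alternatives, 141 stayed within the probe set SD or, for counts, near the reported count, and 24 moved further. No called difference of a member changed sign. Of 99 medians, 9 changed sign: smooth muscle endoderm minus epiblast (0.11) at the higher floor (-0.03) and after quantile normalization (-0.04), sarcomeric mesoderm minus epiblast (0.18) and smooth muscle endoderm minus mesoderm (0.19, to -0.07) with no floor, smooth muscle mesoderm minus epiblast (-0.06) with no floor, at the higher floor and with centring (0.13), smooth muscle endoderm minus mesoderm at the higher floor, and sarcomeric endoderm minus mesoderm (-0.18) with centring (0.08). For single members 1054 of 1119 were the same. The calls of Myl7 and Myl1 were kept under all 11. The alternative that left out probe sets with shared or cross-hybridising probes was chosen after seeing the data. No paired analysis was possible because each layer had 1 array and the labels carry no replicate numbers, which also left no replicate to leave out.

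With the floor at the 75th percentile, the count of members higher in endoderm than in epiblast went from 3 to 1, higher in mesoderm than in epiblast from 5 to 2 and lower from 1 to 0, and for endoderm against mesoderm higher from 1 to 0 and lower from 4 to 2. The calls of Tnni1, Myl2, Tnnt1, Tnnc1 and Myl6b were lost there. The sarcomeric medians, then over few genes, became 3.25 (mesoderm minus epiblast) and -2.96 (endoderm minus mesoderm), and the smooth muscle medians 0.55 and -0.58. With no floor, the mesoderm against epiblast medians were -0.14 (sarcomeric) and 0.23 (smooth muscle).

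With a 3-fold limit, the endoderm against epiblast counts were 1 higher and 0 lower, the mesoderm against epiblast count lower was 0, and the endoderm against mesoderm count higher was 0. The lower count for endoderm against epiblast, Myh10, was 0 with log2(intensity + 32), after averaging probe sets and under housekeeping centring, and was 2 after quantile normalization. Centring on the housekeeping list raised the median of all genes by 0.46, 0.19 and 0.27 for endoderm against epiblast, mesoderm against epiblast and endoderm against mesoderm. The counts higher were then 9 (endoderm against epiblast) and 6 (endoderm against mesoderm), and the endoderm against epiblast medians 0.56 (sarcomeric), 0.57 (smooth muscle) and 0.77 (non-muscle), to be read against 0.52 over all genes. Of all genes called for endoderm against epiblast, 75.7% were higher, 92.9% with centring and 64.3% after quantile normalization. With centring the share rose from 51.5% to 64.7% for mesoderm against epiblast, and from 74.7% to 86.2% for endoderm against mesoderm. The centring rests on Polr2a in endoderm and Hprt in the other layers. The calls of Tnnc1 in mesoderm and of Myl6b were also lost when dim values were raised to the floor, and the call of Actn1 with the mean of probe sets and after quantile normalization. The causes were not tested.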
